A study of Mus musculus with 14 samples.

Results

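Mouse genes whose symbol starts with Zfp and a number form the group described here. They were taken from every probe set (a block of probes that reports on 1 transcript) that the annotation of 3 oligonucleotide array sets, A, B and C, pairs with a single such symbol. This gave 464 probe sets for 278 genes, out of 36701 probe sets other than array controls and 15965 genes named by a single symbol. Of these, 116 lay on set A, 215 on set B and 133 on set C, and 205 genes were on a single array set. The study measured RNA of mouse spleen cells on 14 arrays and compared primary splenocytes in which follicular dendritic cells (FDC) were enriched with primary splenocytes depleted of them. FDC are stromal cells that display antigen to B cells. Each set was hybridised with depleted samples 1 and 2, sets A and C also with enriched samples 1 to 3, and set B with enriched samples 2 and 3. The labels used here state no strain, age, genotype, treatment or way of separating the cells. They also do not tie a group's samples to different animals: the p-values gauge how much these samples vary, and that variation may be technical.

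Zfp is the mouse prefix for zinc finger protein, and it names proteins by their fold rather than by a shared task. Most members carry classical fingers, in which cysteines and histidines hold a zinc ion and the finger reads a few bases of DNA. Many of these add a KRAB domain, which binds the corepressor Trim28 (KAP1) and through it the histone methyltransferase Setdb1, histone deacetylases and heterochromatin proteins, and which is known for silencing transposons and imprinted loci. A small branch around Zfp36 has another kind of finger, binds AU-rich stretches in messenger RNA and speeds its decay. Many KRAB members sit beside each other in the genome as near copies, so a probe set can read more than 1 of them. In the probe set names, the suffixes _f, _i, _r and _s mark designs that relaxed the rule of unique probes, and 109 of the 464 probe sets carried one.

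The fractions carried the markers their labels call for. In the enriched fraction, all 7 tested FDC markers, all 8 tested endothelial markers and all 7 tested macrophage markers rose, as did 4 of 5 tested fibroblast markers (adjusted p under 0.05, limma), while 7 of 8 tested B cell markers, 7 of 7 T cell markers and 3 of 3 NK cell markers fell. The enriched fraction is therefore described here as the fraction labelled FDC-enriched, since stromal, endothelial and macrophage markers moved with it. On set A the summed intensity of 7 FDC markers was 5044 and 5888 on the depleted arrays and 21430 to 25774 on the enriched arrays. The sum of 7 B cell markers was 23732 and 24011 against 7129 to 9322, that of 7 T cell markers 5173 and 5552 against 1692 to 1771, that of 7 endothelial markers 1450 and 1493 against 16400 to 18510, and that of 7 macrophage markers 4867 and 5777 against 13913 to 16211. No tested marker stood at the lowest deposited value of 0.001 on any array of set A. The part of these cell types in the results below was not tested, and fewer cells of a type and less RNA per cell cannot be told apart in bulk samples.

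Most Zfp genes did not pass the test between the fractions, and rises were fewer among them than among other named genes. The test was limma on log2(intensity + pseudocount), and a probe set passed at a Benjamini-Hochberg adjusted p under 0.05. All fold changes given here, and the limits of 1.5-fold, are of intensity plus the pseudocount, a constant added to every value. They are therefore smaller than the ratios of the printed intensities, most of all for dim probe sets. Probe sets had to exceed the 40th percentile of at least 2 arrays to be tested, as 261 of the 464 did, standing for 182 of the 278 genes. Each gene was represented by its brightest tested probe set. By that measure, 11 of the 182 genes rose in the enriched fraction (6.04%, where 19.4% of 12091 other named genes did), 32 fell (17.6%, against a background of 14.4%) and 139 did not pass. Of those 139, 137 had a 95% confidence interval within 1.5-fold in both directions. Changes of over 1.5-fold were found for 4 rising genes (2.2%, background 7.84%) and 7 falling ones (3.85%, background 4.57%). Among them, Zfp46 of the rises and Zfp831 and Zfp53 of the falls were above the 40th percentile in 1 group alone. These genes had to differ to be tested, so their calls carry no weight as support. Such calls were not taken out of the gene counts. The median log2 fold change was -0.04 over the Zfp genes and 0.02 over the other named genes. In all 43 passing genes the arrays of the groups did not overlap. Groups without overlap were also seen, whether or not the gene passed, for 43 genes in the upward direction (23.6%, background 34.1%) and 60 in the downward direction (33.0%, background 27.3%). Probe sets above the 40th percentile on depleted arrays alone cannot be tested once a depleted array is left out. Falls among them then drop out. Such probe sets made up 7.66% of the tested Zfp probe sets and 2.8% of the other named ones. The count of falls was smaller when either depleted array was left out. Without depleted sample 1 it was 13 of 168 tested genes (7.74%, where 9.34% of other named genes fell), and without depleted sample 2 it was 12 of 169 (7.1%, where 8.57% fell), so the share of falls then lay under that of other genes. The rises numbered 9 and 10 in those fits, against shares of 14.7% and 14.5% of other genes.

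**Figure D1:**
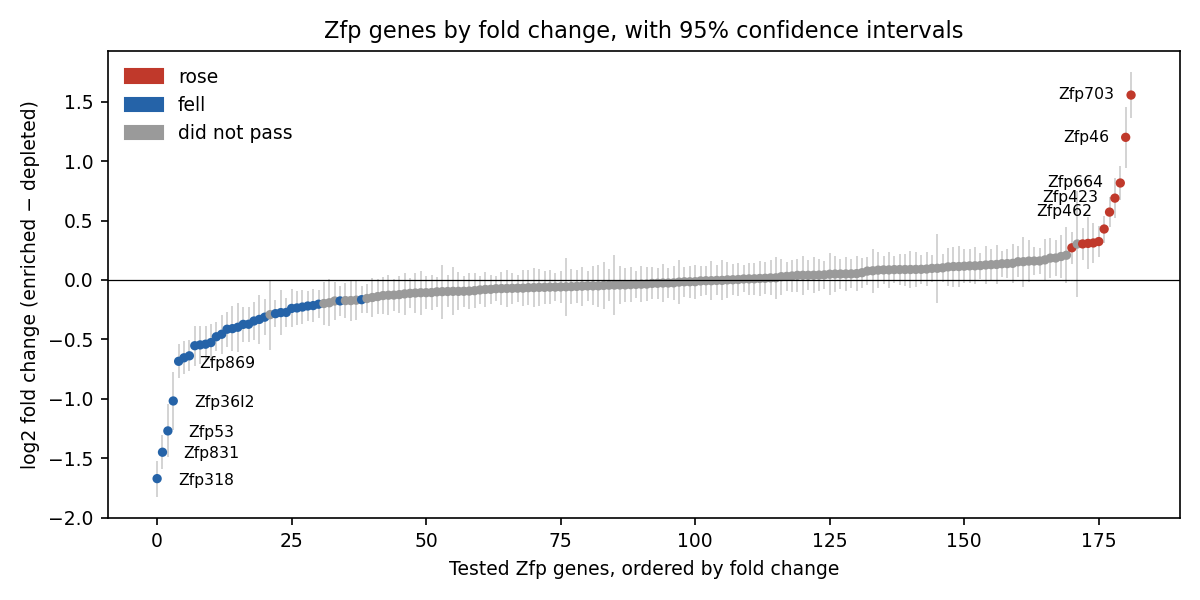
Log2 fold change (vertical axis, enriched minus depleted) of the 182 tested Zfp genes in rising order (horizontal axis), each at its brightest tested probe set, with 95% confidence intervals from limma as bars. The 11 genes that rose are red, the 32 that fell are blue and the 139 that did not pass are grey, and most points lie close to 0.

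The 3 array sets carry different probe sets and were tested apart. On set A, 5 of 57 tested Zfp probe sets were higher in the enriched fraction (8.77%, background 24.0%) and 19 were lower (33.3%, background 17.4%). On set B, 9 of 128 were higher (7.03%, background 20.7%) and 21 lower (16.4%, background 16.6%). On set C, 2 of 76 were higher (2.63%, background 11.4%) and 10 lower (13.2%, background 8.07%). The share of higher probe sets lay under that of other named probe sets in all 49 combinations of array set and setting run. The share of lower ones exceeded background in 17 of 17 settings on A, 15 of 17 on C and 5 of 15 on B. The settings reused the same arrays and several repeated the main counts, so they are not separate tests. Of the 57 tested Zfp probe sets on A, 9 reached the level needed for testing on depleted arrays alone. They had to differ to be tested, and 8 of them were among the 19 lower ones. Such probe sets made up 6 of the 21 lower ones on B and 2 of the 10 on C. The excess of lower ones on A thus rests partly on calls that carry no weight. Single arrays moved the counts of higher and lower probe sets. On set A the lower probe sets numbered 7 without depleted sample 1 and 8 without depleted sample 2, and the higher ones 2 and 3 in these fits, 8 without enriched sample 1 and 3 without enriched sample 3. On set B the lower ones numbered 11 and 10 without depleted sample 1 or 2, and the higher ones 15 without enriched sample 2. On set C the lower ones numbered 4 and 2 without depleted sample 1 or 2, 6 without enriched sample 1 and 5 without enriched sample 3, and 1 was higher when either depleted sample or enriched sample 2 was left out. The scale of the arrays mattered on set A, where scaling to equal medians gave 2 higher and 25 lower Zfp probe sets, beside 18% and 26.9% of the other named probe sets, and moved the median log2 fold change of all tested probe sets from 0.02 to -0.09.

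**Figure D2:**
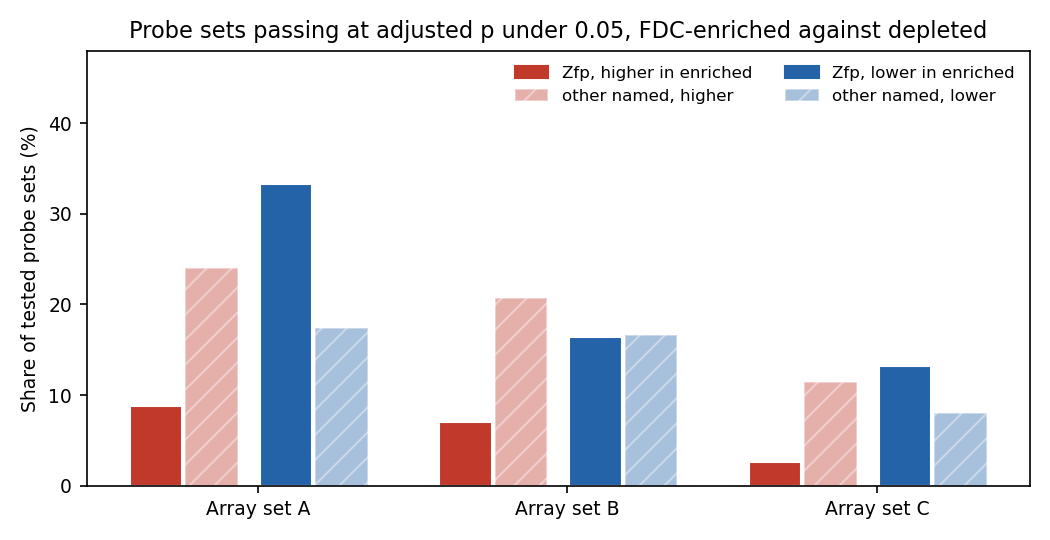
Share of tested probe sets (vertical axis, percent) that passed at an adjusted p under 0.05 on array sets A, B and C, with Zfp probe sets as solid bars and all other named probe sets as pale hatched bars, red for higher and blue for lower in the enriched fraction. On each set the solid red bar is lower than the hatched red bar, and on sets A and C the solid blue bar is higher than the hatched one.

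Zfp probe sets were dimmer than the average tested probe set. When the tested probe sets of each array set were cut into 3 equal classes by level, 108 of the Zfp probe sets (41.4%) fell in the dimmest class, 78 in the middle and 75 in the brightest. Higher probe sets made up 8.33%, 7.69% and 1.33% of the Zfp probe sets of these classes, where the shares among other named probe sets were 18.6%, 19.2% and 20.9%. Lower ones made up 23.1%, 20.5% and 12% of them, where they were 13.3%, 14.5% and 16.3%. The share of higher probe sets was smaller for Zfp than for other genes in each class, and the lower probe sets exceeded the background in the dimmest and the middle class. Of the 261 tested Zfp probe sets, 20 were above the 40th percentile on depleted arrays alone and 16 of these were called lower, while 3 were above it on enriched arrays alone and 2 of these were called higher. Such probe sets had to differ to be tested, so their calls carry no weight as support. Among other named probe sets, 2.8% were tested through depleted arrays alone and 4.44% through enriched arrays alone, against 7.66% and 1.15% of the Zfp probe sets. Of the 238 Zfp probe sets above that level in both groups, 14 were higher (5.88%, background 16.8%) and 34 lower (14.3%, background 13.7%). In these the share of falls was thus near the background, while that of rises was under it. Of the 203 Zfp probe sets below the filter, 12 passed as higher when the filter was dropped (5.91%, background 9.05%) and 32 as lower (15.8%, background 5.61%). Among the 204 tested probe sets with a plain suffix, 13 were higher (6.37%, background 20.5%) and 40 lower (19.6%, background 15.2%).

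The largest rise was that of Zfp703, a nuclear corepressor related to Zfp503. On set A its intensity was 211 and 247 on the depleted arrays and 799, 835 and 903 on the enriched arrays, so that every enriched array lay far above both depleted ones. The fitted rise was 2.94-fold (log2 fold change 1.56, SE 0.08, adjusted p = 2.55e-06, limma). Its relative Zfp503 had 284 and 242 against 206 and 278 at its brightest probe set, on set B, where the groups overlapped (log2 fold change -0.10, adjusted p = 0.501). With enriched sample 3 left out it passed in the downward direction at -0.26 (adjusted p = 0.0154), with a lone enriched array whose spread was taken from the depleted arrays. At a dim Zfp503 probe set of set A, below the filter, the intensity was 26.4 and 31.7 on the depleted arrays and 177 and 191 on enriched samples 1 and 3, and enriched sample 2 has no value there. Another dim Zfp503 probe set of set A had 4.45 and 11.4 against 33.8, 51.9 and 52.2. Both are of the _r type and passed as rises without the filter (limma). Their log2 fold changes were 1.21 (adjusted p = 6.09e-06) and 0.48 (0.000708). Zfp503 probe sets therefore did not give 1 direction.

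Zfp423 rose on both array sets that carried it. This factor binds Ebf and Smad proteins and is known for committing mesenchymal cells to the fat lineage. On set B its intensity was 219 and 218 on the depleted arrays and 367 and 439.7 on the enriched arrays, a rise of 1.61-fold (log2 fold change 0.69, SE 0.08, adjusted p = 5.47e-05). A separate probe set on set C gave 119 and 120.2 against 153, 147 and 137, a rise of 0.20 on the log2 scale (adjusted p = 0.0269). The groups did not overlap on either set. Zfp521, the closest relative of Zfp423 and an inhibitor of Ebf1, had a dim probe set that did not reach the filter. Its intensity on set B was 14.1 and 12.3 on the depleted arrays and 108 and 122.5 on the enriched arrays. Without the filter it passed as a rise of 1.06 on the log2 scale (adjusted p = 8.5e-08), a value that the pseudocount holds down at such low levels.

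Zfp46, Zfp664 and Zfp462 followed among the rises. Zfp46 had intensities of 67.8 and 62.1 on the depleted and 214, 308 and 277 on the enriched arrays of set A, a rise of 2.30-fold (adjusted p = 5.94e-05). Both depleted arrays lay below the 40th percentile there, so that Zfp46 was tested through the enriched arrays alone. Zfp664 had 165 and 149.8 against 322 and 357 on set B, a rise of 1.76-fold (adjusted p = 5.46e-06). A dim Zfp664 probe set of set C, below the filter, did not pass without it (log2 fold change 0.03, adjusted p = 0.885). Zfp462, a protein tied to heterochromatin in embryonic stem cells, had 213 and 217 against 367 and 351 on set B, a rise of 1.49-fold (adjusted p = 3.07e-05). The groups lay clearly apart for Zfp664 and Zfp462 on set B. Zfp46 had to differ to be tested, so the gap between its groups carries no weight as support. The other rises were 1.35-fold or less. They were Zfp979 (1.35-fold, log2 fold change 0.43, on set C, again tested through the enriched arrays alone), Zfp9 (0.32), Zfp131 (0.31), Zfp36 (0.31), Zfp984 (0.30) and Zfp609 (0.27, a partner of the cohesin loader Nipbl). The call of Zfp131, a repressor with a BTB domain, was lost without depleted sample 1 (adjusted p = 0.101) or 2 (0.0578), with quantile normalization (0.0535) and with scaling to equal medians (0.0671).

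Zfp318 showed the largest fall, and all of its tested probe sets fell. It is needed in mature B cells to read through from the IgM to the IgD exons of the heavy chain transcript. On set B the brightest probe set had 705 and 634 on the depleted arrays and 159 and 149 on the enriched arrays, a fall of 3.19-fold (log2 fold change -1.67, SE 0.07, adjusted p = 4.82e-08). The other tested probe sets, also on set B, had 272 and 268 against 126 and 115, and 410.4 and 400.1 against 199 and 210.1. Their log2 fold changes were -0.80 and -0.77, so the 3 tested probe sets agreed in direction and differed in size. A dim Zfp318 probe set of set B, below the filter, had 136 and 152 against 118 and 124.5. It did not pass without the filter (log2 fold change -0.15, adjusted p = 0.0775). The fall of Zfp318 kept its call in all 11 other settings run for it, with log2 fold changes from -1.92 to -1.42. B cell markers fell with it, as given above.

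Zfp831 and Zfp53 fell next. Zfp831 had 316 and 333 on the depleted arrays and 81.6, 95.6 and 79.0 on the enriched arrays of set C, a fall of 2.73-fold (adjusted p = 1.45e-06). The Zfp53 probe set on set A had 271 and 339 against 65.1, 86.9 and 70.5, a fall of 2.41-fold (adjusted p = 1.83e-05). Both were tested through the depleted arrays alone, and the Zfp53 probe set is of the family type (_f), which can read near copies. A dim Zfp53 probe set of the plain type on set C had 60.4 and 71.3 against 26.1, 30.4 and 28.5, which passed without the filter (log2 fold change -0.55, adjusted p = 0.000175).

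Zfp869, Zfp236, Zfp280c, Zfp942, Zfp688 and Zfp280d completed the list of the 10 largest falls together with Zfp36l2. Zfp869 had 972 and 937 against 557 and 569.7 on set B, a fall of 1.61-fold (adjusted p = 1.57e-05). Zfp236 had 430.2 and 396 against 232 and 233 on set B, a fall of 1.57-fold (adjusted p = 1.79e-05). The paralogues Zfp280c and Zfp280d fell 1.56-fold and 1.45-fold on set B (adjusted p = 1.51e-05 and 0.000131). Zfp942 and Zfp688 fell 1.47-fold and 1.46-fold on set A (adjusted p = 0.000415 and 0.000363). In all of these the lowest depleted array lay above the highest enriched array, and Zfp942, Zfp688 and Zfp280d were tested through the depleted arrays alone.

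**Figure D3:**
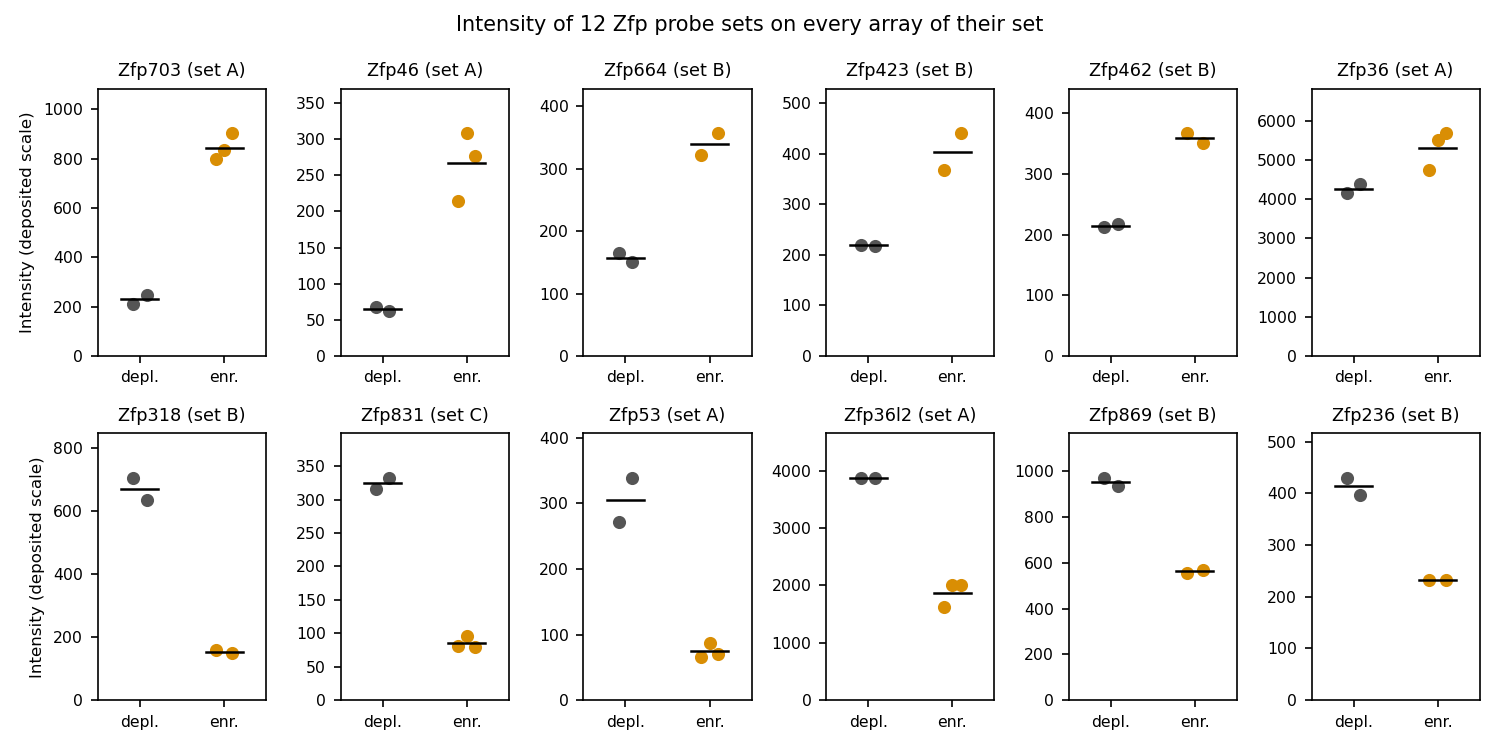
Intensity on the deposited linear scale (vertical axes, starting at 0) of 12 Zfp probe sets, 1 panel each, with every array of the array set as a point, depleted in grey and enriched in orange, and group means as black lines. The points of the groups do not overlap in any panel, and the gap is narrowest for Zfp36.

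The Zfp36 branch, which binds RNA instead of DNA, did not move as a unit. Zfp36 (tristetraprolin), which destabilises Tnf and other inflammatory messages, had 4146 and 4379.8 on the depleted arrays and 4747, 5512 and 5675 on the enriched arrays of set A. This was a rise of 1.24-fold (log2 fold change 0.31, SE 0.09, adjusted p = 0.0320). The call was weak: the adjusted p was 0.198 without depleted sample 1, 0.103 without depleted sample 2, 0.0624 without enriched sample 2, 0.0952 without enriched sample 3, 0.169 with scaling to equal medians and 0.102 when blocked on replicate number. Zfp36l1 had 4385 and 4695 against 3664, 4087 and 4149 and did not pass (log2 fold change -0.19, adjusted p = 0.111). With scaling to equal medians it passed at -0.32 (adjusted p = 0.0124). Zfp36l2, a factor of lymphocyte development and quiescence, had 3865 and 3877 against 1616, 2002 and 2006, a fall of 2.03-fold (log2 fold change -1.02, SE 0.11, adjusted p = 0.000112). A second Zfp36l2 probe set had 522 and 482 against 308, 298 and 354, a fall of 1.45-fold (adjusted p = 0.00105). A last one, of the _r type, had 2041 and 2053 against 2209, 1999.9 and 1944, a difference of 0.00 on the log2 scale (adjusted p = 0.998). Its 95% interval ran from -0.19 to 0.19, so the Zfp36l2 probe sets disagreed.

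Messages that Zfp36 proteins are known to bind mostly rose. Of 18 tested genes on a list of such targets, 12 rose (66.7%), 2 fell (11.1%) and 4 did not pass, where 19.4% of all other named genes rose and 14.4% fell. The chemokine genes Cxcl10, Cxcl1 and Ccl2 rose with log2 fold changes of 3.63, 3.59 and 3.12, and Il6 with 1.94. Cd69, an early activation marker of lymphocytes, fell with a log2 fold change of -2.26, and Myc with -0.63. The list is inflammatory by choice, it was drawn up with earlier results of these data known, and Tnf rose too (1.39). Of 14 tested genes of the decay machinery and the p38 arm that controls Zfp36, 4 rose (28.6%), 3 fell (21.4%) and 7 did not pass, beside a background of 19.4% and 14.4%. Mapkapk2, the kinase that inactivates Zfp36, rose with a log2 fold change of 0.69, and the 14-3-3 genes Ywhab, Ywhag and Ywhaz with 0.54, 0.53 and 0.33. The 5' exonuclease gene Xrn1 fell with -0.33, the decapping gene Dcp1a with -0.32 and the deadenylase gene Cnot6l with -0.18. The rises numbered 2 without depleted sample 1, and the falls 1 without depleted sample 1, 0 without depleted sample 2 and 2 without enriched sample 3.

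Genes with a known role in lymphocytes, growth or repression that belong to this family mostly did not pass. A list of 54 Zfp genes with described roles had 44 on the arrays and 33 tested, of which 6 rose (18.2%), 5 fell (15.2%) and 22 did not pass, shares near the background of 19.4% and 14.4%. Zfp91, a ligase that acts on the NF-kB inducing kinase, had 1036 and 1033 against 779, 902 and 841 on set A, a fall of 1.21-fold (adjusted p = 0.0279). It lost its call when depleted sample 1 (adjusted p = 0.160) or 2 (0.156) or enriched sample 3 (0.0755) was left out and when blocked on replicate number (0.0808), whereas a dimmer Zfp91 probe set fell 1.69-fold (0.000135). Zfp292 had 1580 and 1598 against 1089, 1205 and 1234 at its brightest probe set, a fall of 1.33-fold (adjusted p = 0.00430). This reached 0.0503 without depleted sample 2. At another probe set of set A it had 619 and 654 against 175, 253 and 207, a fall of 2.43-fold (adjusted p = 3.26e-05). Zfp830 fell 1.12-fold (adjusted p = 0.0494), and its call was lost in 8 of 13 other settings.

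Other members of that list did not pass at the probe set that stood for them. Zfp148, which binds GC-rich promoters, had a log2 fold change of -0.11 at its brightest probe set (adjusted p = 0.305), but 3 others fell, by 0.30, 0.25 and 0.19 on the log2 scale. Its relative Zfp281, a factor of embryonic stem cells, had -0.05 (adjusted p = 0.669). Zfp335, needed for T cell maturation, had -0.13 (adjusted p = 0.137), and the repressor Zfp217 had 0.09 (0.277) while another of its probe sets fell by 0.17 (0.0448). Zfp207, which helps Bub3 onto the spindle, had -0.13 at its brightest probe set (adjusted p = 0.209) and rose 1.19-fold at another, on set B (0.00909). Its 3 dim probe sets on set B, below the filter, went the other way, the strongest from 110.4 and 100.3 on the depleted to 31.5 and 33.9 on the enriched arrays. Without the filter they passed as falls, by 0.71 (adjusted p = 1.38e-06), 0.38 (0.000835) and 0.31 (0.00103) on the log2 scale, so the Zfp207 probe sets disagreed. Zfp622, which works in ribosome assembly, had -0.29 (0.105). Zfp207 and Zfp622 passed as falls with quantile normalization (adjusted p = 0.0309 and 0.0230) and with scaling to equal medians (0.0261 and 0.0187), and Zfp622 also without depleted sample 2 (0.0436) or enriched sample 2 (0.0449). Zfp568, a KRAB protein that silences Igf2 transcripts, had 0.02 (0.862), and Zfp809, a KRAB protein that silences retroviruses in embryonic stem cells, had 0.10 (0.238). Zfp57, which guards imprints, and Zfp42 (Rex1), a marker of embryonic stem cells, lay below the filter, with intensities of 67.8 to 88.1 and 109.5 to 165 over the 5 arrays of set A. The other tested members of the list did not pass either, with log2 fold changes from -0.10 for Zfp219 and Zfp106 to 0.20 for Zfp52, and Zfp346, which binds double-stranded RNA, had -0.00. Zfp467 had 0.05 at its brightest probe set, though a dimmer one on set B rose. Zfp326 passed as a rise without enriched sample 1 (adjusted p = 0.0126). On set B, Zfp52 did so without enriched sample 2 (0.00107) and Zfp263 without enriched sample 3 (0.0275), in fits that left a lone enriched array and took the spread from the depleted ones.

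Several probe sets of a gene give a check within the same samples, since each has its own probes. There were 53 Zfp genes with more than 1 tested probe set, and in 28 of them all log2 fold changes had the same sign. The matching share among other named genes was not computed, so this does not show unusual agreement. At least 1 probe set passed in 19 genes. In 10 of these, several passed and all pointed the same way, in 9 a single probe set passed, and in 0 did probe sets pass in opposite directions. These counts cover tested probe sets only. Dim Zfp207 probe sets passed as falls without the filter, as given above, while a tested one passed as a rise. Zfp692 shows how far such probe sets can part. Its set A probe set fell 1.63-fold (adjusted p = 7.54e-05), from 234 and 220.3 on the depleted to 97.5, 109 and 108 on the enriched arrays. That probe set was tested through the depleted arrays alone, so its call carries no weight as support. On set C the brightest one had 1108 and 1107 against 1255, 1171 and 1247 (log2 fold change 0.14, adjusted p = 0.119). Zfp871 fell 1.56-fold on set A (adjusted p = 0.00299) and 1.19-fold at a probe set of set B (0.00360), but had -0.06 and 0.06 on the log2 scale at the other pair on set B (0.486 and 0.450). Counting a gene as higher or lower when any probe set passed gave 15 higher and 39 lower. Shares of other named genes under this looser rule were not computed, so these counts have no background. The lower count also includes calls made through depleted arrays alone, such as that of Zfp692.

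**Figure D4:**
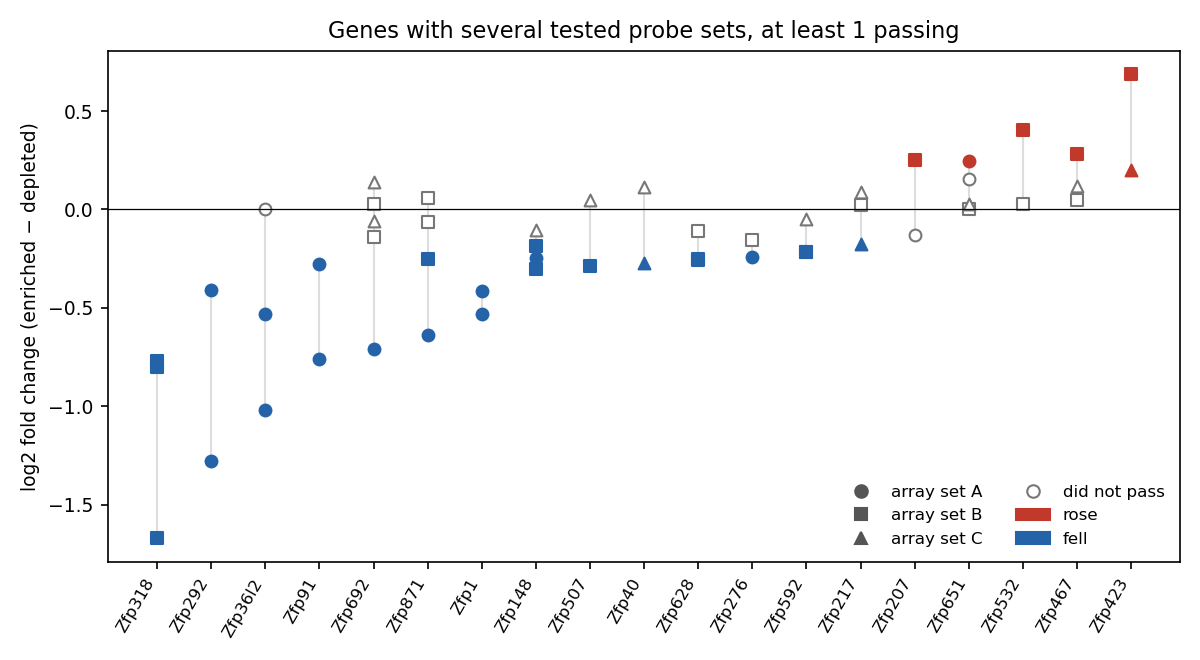
Log2 fold change (vertical axis, enriched minus depleted) of every tested probe set of the 19 Zfp genes with several tested probe sets of which at least 1 passed, 1 column a gene. Circles, squares and triangles stand for array sets A, B and C, filled symbols passed (red rose, blue fell) and open ones did not; no gene has both a red and a blue symbol.

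Genes that lie next to another Zfp gene and genes that stand apart from others both held few rises. The order of protein-coding genes was that of the mouse gene table for GRCm38.p6. Of 78 tested genes with a Zfp gene as direct neighbour, 3 rose (3.85%) and 12 fell (15.4%), and of 101 without one, 8 rose (7.92%) and 20 fell (19.8%), beside 19.4% and 14.4% of other named genes. The difference between these classes was not tested. A run of 20 Zfp genes in the table had 8 tested members, Zfp429, Zfp455, Zfp58, Zfp595, Zfp729a, Zfp748, Zfp87 and Zfp874a. None of them passed, and their log2 fold changes ran from -0.12 to 0.12. The gene table held 9 such runs with at least 3 tested members, and in 4 of them none passed. In a run of 10 genes the tested Zfp112, Zfp180, Zfp235, Zfp61 and Zfp94 had -0.02 to 0.12 and none passed. In a run of 9 genes Zfp979, tested through the enriched arrays alone, and Zfp984 rose, and Zfp982 did not pass (-0.17). A dim Zfp982 probe set of set A, of the _f type, passed as a fall without the filter (log2 fold change -0.30, adjusted p = 0.000705, limma). In 4 runs 1 gene fell, namely Zfp53, described above, Zfp626 (-0.40), Zfp956 (-0.28) and Zfp82 (-0.27).

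Promoter sequences were looked at for the rising and falling genes with the largest changes that have a window in RefSeq (GRCm38.p6, from 250 bases before to 50 after the start), which 148 of the 182 tested genes did. The windows of the pair with the largest rises and the pair with the largest falls among them are printed to set their sequence side by side. Zfp46 lies at chr4:136284426-136284725 on the plus strand, Zfp664 at chr5:124862455-124862754 on the plus strand, Zfp318 at chr17:46383516-46383815 on the plus strand and Zfp53 at chr17:21488738-21489037 on the plus strand. Capitals mark matches, on either strand, to any of the ETS core CCGGAAG, the GC box GGGCGG, the CCAAT box CCAAT, the cAMP response element TGACGTCA and the E-box CACGTG.
Zfp46: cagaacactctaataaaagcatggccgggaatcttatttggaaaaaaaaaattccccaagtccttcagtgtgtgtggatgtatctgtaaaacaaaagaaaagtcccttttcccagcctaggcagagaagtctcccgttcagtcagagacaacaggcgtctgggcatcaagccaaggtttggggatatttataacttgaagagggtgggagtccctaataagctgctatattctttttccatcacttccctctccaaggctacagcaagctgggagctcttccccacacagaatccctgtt
Zfp664: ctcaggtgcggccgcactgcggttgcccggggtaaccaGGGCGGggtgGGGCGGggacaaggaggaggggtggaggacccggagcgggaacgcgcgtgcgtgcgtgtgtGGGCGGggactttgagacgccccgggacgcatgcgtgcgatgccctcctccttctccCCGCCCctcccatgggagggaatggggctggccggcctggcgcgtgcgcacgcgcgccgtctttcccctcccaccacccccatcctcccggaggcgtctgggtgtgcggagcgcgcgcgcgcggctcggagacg
Zfp318: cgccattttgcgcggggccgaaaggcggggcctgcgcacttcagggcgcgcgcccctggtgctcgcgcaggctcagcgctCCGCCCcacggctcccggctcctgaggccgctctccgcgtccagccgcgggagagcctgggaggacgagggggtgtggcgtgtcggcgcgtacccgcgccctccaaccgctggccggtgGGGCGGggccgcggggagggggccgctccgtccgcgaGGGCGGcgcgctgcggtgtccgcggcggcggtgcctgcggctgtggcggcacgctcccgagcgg
Zfp53: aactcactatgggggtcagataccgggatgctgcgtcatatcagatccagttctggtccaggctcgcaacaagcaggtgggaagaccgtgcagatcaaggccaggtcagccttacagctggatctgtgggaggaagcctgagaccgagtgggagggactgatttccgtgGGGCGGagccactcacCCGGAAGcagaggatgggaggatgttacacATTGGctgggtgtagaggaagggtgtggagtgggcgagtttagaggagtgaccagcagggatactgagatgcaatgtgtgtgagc

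Zfp664, which rose, held 4 GC boxes, and Zfp318, which fell, held 3, so the GC box did not separate them. Zfp46, which rose, held 0 matches to any of these motifs, and Zfp53 held 1 GC box, 1 ETS core and 1 CCAAT box. Across the 148 windows 52.7% held a GC box, where 35.9% of 27025 promoter windows of all genes did, and 20.3% held an ETS core, where 9.12% did. The median ratio of observed to expected CpG was 0.69 in the Zfp windows and 0.389 in all windows. The windows of all genes include genes that were not tested, so these are not matched sets. Whether other tested genes differ from the Zfp genes here was not tested. Among the 28 windows of genes that fell, 15 held a GC box and 7 an ETS core, and among the 113 windows of genes that did not pass 57 and 22 did. The 7 windows of genes that rose held a GC box in 6 and an ETS core in 1. These matches describe letters in a window and are not binding sites.

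Genes for corepressors and heterochromatin proteins, a wider set than the partners of KRAB proteins, were more often lower than higher. Of 27 tested genes of a corepressor and heterochromatin list, 1 rose, 10 fell and 16 did not pass, with a median log2 fold change of -0.12, where 19.4% of other named genes rose and 14.4% fell. The methyltransferase gene Ehmt1 fell by 0.48 on the log2 scale (adjusted p = 0.000219), Atf7ip, a partner of Setdb1, by 0.42 (0.000540), the histone chaperone gene Rbbp4 by 0.40 (0.0144) and the maintenance methylase gene Dnmt1 by 0.40 (0.00207). The heterochromatin protein gene Cbx1 rose by 0.33 (adjusted p = 0.00765). Trim28 itself, the direct partner of the KRAB domain, had -0.12 (adjusted p = 0.166) and Setdb1 -0.21 (0.0522), so neither passed. The deacetylase gene Hdac1 was lower (-0.34, adjusted p = 0.00348), while Hdac2 (-0.05, 0.630) and the heterochromatin protein gene Cbx5 (-0.04, 0.698) did not pass. The partners of KRAB proteins named here therefore did not move as a unit. Without depleted sample 2 the list had 6 falls and 0 rises, without depleted sample 1 it had 0 rises, and without enriched sample 1 or with plain suffixes alone 2 rises.

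Other zinc finger genes by name rose and fell in similar numbers in the main counts, though not under other scalings. Of 108 tested genes with prefixes such as Zbtb, Zscan, Zkscan, Zc3h, Zfand and Zdhhc, 21 rose (19.4%), 18 fell (16.7%) and 69 did not pass, beside 19.4% and 14.4% of other named genes. With quantile normalization 16 rose and 25 fell, beside 16.4% and 18.8% of other named genes. With scaling to equal medians 16 rose and 26 fell, beside 15.3% and 19.9%. The rises numbered 13 and the falls 18 without enriched sample 3. The rise of Zfand5 (log2 fold change 1.51), a protein with AN-type fingers tied to the proteasome, and of Zfhx3 (2.83-fold) and Zeb1 (1.03 on the log2 scale), homeodomain zinc finger repressors, was of the size of the largest Zfp rises, and Zc3hav1, an antiviral RNA-binding protein, fell by 0.85. Zbtb46, a factor of dendritic cells, rose by 0.87, and Zfand6, Zc3h4 and Zmym2 fell by 0.74, 0.65 and 0.64. Of 20 tested genes with names that start with Klf or Sp, 5 rose, 5 fell and 10 did not pass, which is 25% each way. They go by name alone and include Sp100, which fell with a log2 fold change of -1.48, and Sp110, which did not pass. Whether Sp100 and Sp110 belong to the Klf and Sp family was not checked, so these shares are those of a name list. Whether the share of rises differs between these families and the Zfp genes was not tested.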

How the data were processed

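RNA was measured in 14 samples, and the authors deposited linear intensity values in 3 tables, 1 for each array set. The steps behind these intensities (background, summary, scaling) were not given in the sources used here. Symbols came from the platform annotation, updated through the Entrez identifier to the GRCm38.p6 gene table, which changed no membership. Probe sets with several symbols were left out, 18 of which named a Zfp gene. The members and lists were chosen with earlier results of these data known.

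Each array set was fitted alone with limma 3.58.1 in R 4.3.3 (lmFit, then eBayes with a trend) on log2(intensity + pseudocount), two-sided and without a block. The pseudocount was the 20th percentile of the positive values, 88.6 on A, 81.3 on B and 52.9 on C, and understates fold changes of dim genes. Array controls, 66 a set, were left out. P-values were adjusted over the 7889, 7792 and 7370 tested probe sets. On set A, 893 probe sets have no value for enriched sample 2, among them 6 Zfp probe sets and 1 tested one (Zfp771), and these were fitted on the other arrays. For a single gene, exact permutation p-values have a minimum of 0.1 with 2 against 3 arrays and 0.333 with 2 against 2. The number of arrays limits the precision. The code was tested on simulated data with known changes. Array medians were 123 to 126 on set C, 199.6 to 209 on B and 244 to 279 on A, higher on each enriched than on each depleted array of a set. Spearman correlations across all probe sets were 0.987 to 0.995 between arrays of a group and 0.913 to 0.970 between groups. Genes were named by rule: the 10 largest rises and falls that passed without overlap, the tested members of a list of described roles, and up to 4 passing genes each way of the corepressor, Zfp36 target and other zinc finger lists. Other genes named (Zfp692, Zfp871, the runs of neighbours, Tnf, Trim28, Setdb1, Hdac1, Hdac2, Cbx5 and the decay genes) were chosen after their values were seen. So were dimmer probe sets and genes below the filter. Settings tried were other scalings, pseudocounts, filters and adjustments, the replicate number as a block, no trend in the prior variance and each array left out.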

Additional observations from a re-analysis of the deposited data

How the results depend on the processing

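Of the 24 passing genes among the 46 named by rule, 19 kept their call in every other setting that gave them a value, and no passing gene changed sign. For 12 of the 19 both groups lay above the filter and both depleted arrays could be left out. The other 7 were tested through 1 group alone, and 5 of these (Zfp53, Zfp831, Zfp942, Zfp688 and Zfp280d) had no value without a depleted array, so their stability there is not known. The counts moved as follows. Higher Zfp probe sets on set A numbered 3 with quantile normalization or the replicate block, 2 with scaling to equal medians and 10 with no filter, against 5. Those on set C numbered 5 unfiltered, 4 when p-values were adjusted across the 3 sets together, and 1 with the replicate block or with plain suffixes alone, against 2. Lower probe sets numbered 40 with no filter on set B, against 21, and on set C 5 with the replicate block and 6 with plain suffixes alone, against 10. The median log2 fold change of the Zfp genes, -0.04, was -0.064 with quantile normalization, -0.073 with equal medians, -0.026 with no filter and -0.029 with the 40th percentile as pseudocount. When each array was left out in turn, the ranges were 9 to 14 genes that rose and 12 to 34 that fell, with a median of -0.039 to -0.0041. Higher probe sets ranged from 2 to 8 on A, 8 to 15 on B and 1 to 2 on C, and lower ones from 7 to 20 on A, 10 to 23 on B and 2 to 7 on C. The restriction to plain suffixes and to complete values was chosen after seeing the data. Probe sets tested through depleted arrays alone had no value in the fits without a depleted array. Otherwise the cause of these moves was not tested.

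The shared replicate numbers do not pair the samples by any label. Deviations of same-numbered arrays from their group means correlated at 0.03 and 0.07 on set A and at -0.31 and -0.14 on set C. With the replicate block 10 Zfp genes rose and 28 fell, with set B taken unblocked, since it could not be fitted with groups that share 1 number. Dim intensities limit what can be said of the 96 genes below the filter.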
